A study of Homo sapiens with 10 samples.

Results

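Shared sites were called 5-methylcytosine (m5C) sites that occupied the same exons in MDA-468, a human breast cancer cell line, and in MCF-10A, a line of human breast epithelium that does not form tumours. A site of one list was a shared site when its exon blocks overlapped an exon block of the other list by at least 1 nt on the same strand. By this rule 3965 of 8320 MDA-468 sites were shared (47.7%, exact Clopper-Pearson 95% interval 46.6 to 48.7), as were 3857 of 5194 MCF-10A sites (74.3%, 73.0 to 75.4), out of 13514 sites in all. The members were thus selected on measured values, the positions of the sites that the authors called in each line, so the overlap itself is a description. Intervals here cover the counting of sites or genes only.

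The assay was MeRIP-seq, immunoprecipitation of methylated RNA followed by sequencing, in which fragments of polyadenylated RNA bound by an antibody against m5C are sequenced beside unselected input fragments. The 10 samples were untreated cultures, with 2 MeRIP and 2 input libraries of MDA-468, and 2 MeRIP libraries, 2 MeRIP technical replicates and 2 input libraries of MCF-10A. The culture description names MDA-MB-468 for every sample, those of MCF-10A included, and does not say whether replicates were separate cultures. The data are 1 merged site list for each line and 1 table of sites that the authors called different between the lines, so depth is unknown, no value has a replicate error, and no test over samples could be made.

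m5C is written into RNA by the NSUN family of methyltransferases and by TRDMT1 (DNMT2), and its best described positions are in transfer and ribosomal RNA. In messenger RNA it is bound by readers such as ALYREF and YBX1, which are linked to nuclear export and to transcript stability. An antibody peak spans the fragments around a modified base, so a site in these lists is a stretch of exon, not a single cytosine.

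The host transcripts of the shared sites had sequence words in common. All 14-base words were counted in GENCODE release 29 transcripts, 1 per protein-coding gene. The longest coding transcript of each gene was taken, and the lengths and shares below are those of that transcript. In all, 98 words stood in at least 20% of the 2369 transcripts with a shared site. They were ordered by the excess of this share over that in the 14075 transcripts with no site in either line. Word 1 had the largest excess. Words 2 to 4 are the next in order that share no long stretch with an earlier word on either strand. Word 2 can overlap the end of word 1 by 3 bases. Each is given as it stands in the transcript, and for the shares below both strands were searched.
Word 1: CCTGTAATCCCAGC
Word 2: AGCACTTTGGGAGG
Word 3: CAGGCTGGAGTGCA
Word 4: GAGGCTGAGGCAGG
As background, these letters belong to the consensus of Alu elements, the most abundant short interspersed repeats of the human genome. Word 1 or its reverse complement stood in 63.2% of transcripts with a shared site and in 7.06% of those with no site. It stood in 4.06% of the 2020 transcripts with sites in MDA-468 only and in 27.7% of the 575 with sites in MCF-10A only. Over all 19127 transcripts searched the share was 14.4%. Word 1 was absent on both strands from the transcripts searched for many of the genes described here. Among them were ORC4, ALG1, SLC37A2, HOXA7, TCAF2, OSR1, MAB21L3, LRRC58, CASP2, E2F2, SC5D, BRD3, SETD1B, NSUN4, TRDMT1, PTPRC and ZNF273. The transcript searched for CYP20A1, which is among the genes with the most shared sites, also lacked it. That transcript measured 1986 nt, while the shared sites of CYP20A1 spread over chr2:204162026-204170204. Only 1 transcript per gene was searched, and whether it holds the sites was not analysed. The shares for transcripts with a shared site and with no site were 56.9% and 6.27% for word 2, 51.5% and 5.75% for word 3, and 51.0% and 5.58% for word 4. The words were chosen in these same data for this excess. A higher share in hosts of shared sites than in transcripts with no site thus follows from the selection. This comparison, here and by length below, is a description only.

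Word 1 was as frequent in one orientation as in the other. It read forward in 36.6% (34.7 to 38.6) and backward in 35.3% (33.4 to 37.3) of the transcripts with a shared site, and both ways in 8.74%. Of its forward copies in these transcripts 98.2% of 1443 lay in the 3′ UTR, as did 95.5% of 1329 backward copies. In transcripts with no site in either line 92.3% of 1899 copies of either orientation lay there, with 7.06% in the 5′ UTR, against 1.66% of forward and 3.91% of backward copies in the hosts of shared sites. The site lists are in hg19, for which no genome was used here, so whether a site covers the word was not analysed. How reads that match many repeat copies were placed is not given in the sources used here, and the part of read placement in these sites was not tested.

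The share of hosts with word 1 was higher for genes with more shared sites. The forward word stood in 32.3% (30.2 to 34.5) of 1870 transcripts with exactly 1 shared site, 46.7% (41.5 to 52.0) of 366 with 2, 65.4% (54.0 to 75.7) of 81 with 3 and 76.9% (63.2 to 87.5) of 52 with 4 or more. Transcript length moved with this order, with medians of 4245, 5114.5, 6364 and 7677 nt. Length was not split by the number of shared sites. Within length classes, the shares of hosts of any shared site and of transcripts with no site that held the forward word were 25.9% against 1.37% under 3000 nt, 36.3% against 4.31% from 3000 to 5000 nt, 38.7% against 8.61% from 5000 to 7000 nt, and 48.1% against 17.2% at 7000 nt or more. Hosts of shared sites also differed in base composition, with a median GC content of 45.7%, against 56.7% for hosts of sites in MDA-468 only, 46.9% for hosts of sites in MCF-10A only and 49.0% for transcripts with no site.

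**Figure D1:**
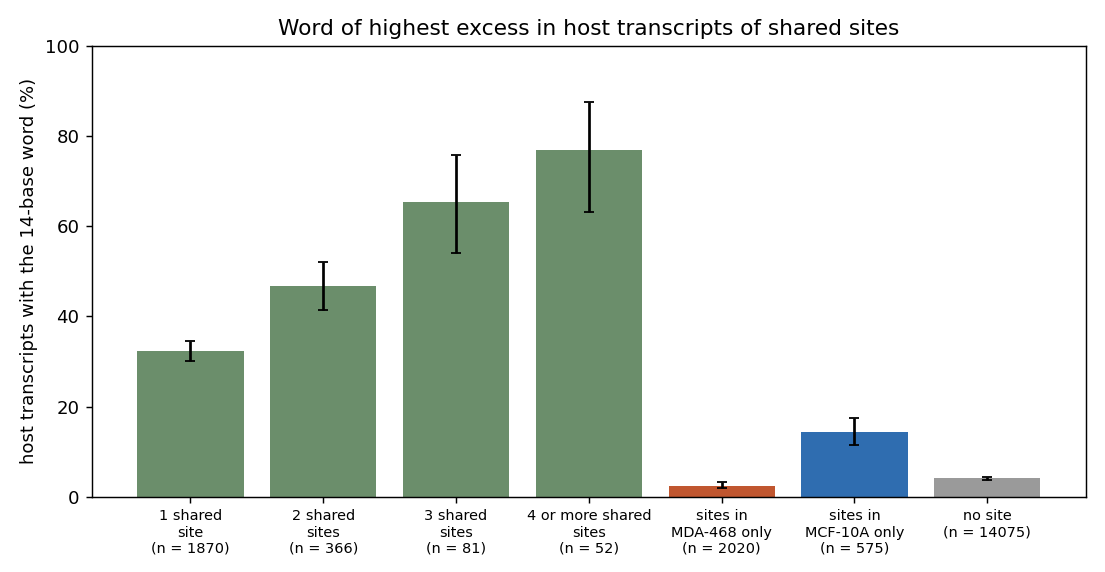
Share of protein-coding host transcripts (y axis, %) that hold word 1 in the forward orientation, by the number of shared sites in the gene and for genes with sites in 1 line only or in none (x axis); bars are shares and lines are exact 95% intervals. The share was 32.3% with 1 shared site and 76.9% with 4 or more, against 2.48% with sites in MDA-468 only, 14.3% with sites in MCF-10A only and 4.1% with no site. Word 1 was chosen for its excess in hosts of shared sites over transcripts with no site.

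Sites overlapped mostly one to one. The overlaps formed 3757 groups, of which 3539 (94.2%) paired 1 MDA-468 site with 1 MCF-10A site, and every such pair carried the same gene identifier or, in 26 pairs, none. In 127 groups (3.38%) 1 MCF-10A site was split over 261 MDA-468 sites, and in 18 groups 1 MDA-468 site joined several of 38 MCF-10A sites. The remaining 73 groups held 147 MDA-468 and 153 MCF-10A sites. In 68 of them the rows of each line also overlapped each other, and 70 held rows of 2 or more gene identifiers, as where the files list the same stretch under overlapping genes. The threshold of 1 nt decided few sites. Of 4133 overlapping pairs of sites, 28 shared 30 nt or less and 23 of these shared exactly 1 nt, against a median of 211 nt. Just outside it, 9 unshared MCF-10A sites had an MDA-468 site within 30 nt on the same strand and 30 had one within 100 nt.

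In the one-to-one pairs the MDA-468 site was usually the narrower one. MDA-468 sites had a median width of 240 nt (interquartile range 180 to 300) and MCF-10A sites of 301 nt (240 to 361). The median difference, MDA-468 minus MCF-10A, was -60 nt (-119 to -30) and the median ratio 0.8 (0.644 to 0.912). The MDA-468 site was narrower in 2846 pairs (80.4%, 79.1 to 81.7), of equal width in 372 (10.5%) and wider in 321 (9.07%). It was no more than 50% as wide as its partner in 320 pairs and at least 2 times as wide in 62. Shared sites were wide for their list in both lines, with medians of 240 nt for shared and 149 nt for unshared sites in MDA-468, and of 328 and 151 nt in MCF-10A. Widths moved in steps. In 3367 pairs (95.1%) the difference lay within 1 nt of a multiple of 30 nt, so a median of -60 nt is a shift of few steps. MCF-10A had 2 technical MeRIP replicates that MDA-468 did not have, and line, depth and number of libraries cannot be told apart in these widths.

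The narrower MDA-468 sites lay inside their partners. The MDA-468 site was nested in the MCF-10A site in 2689 pairs (76.0%, 74.5 to 77.4), the edges were identical in 288 (8.14%), the MCF-10A site was nested in the MDA-468 site in 249 (7.04%), and the sites were staggered in 313 (8.84%). Edges were followed along transcription in the 3269 pairs in which both sites were a single block. The 5′ edge was retracted in MDA-468 in 2105 pairs (64.4%) and extended in 279 (8.53%), and the 3′ edge was retracted in 2036 (62.3%) and extended in 270 (8.26%). Both edges were retracted in 1342 pairs (41.1%), the 5′ edge alone in 622 (19.0%) and the 3′ edge alone in 556 (17.0%). The retraction was therefore near even on the 2 sides, with edge medians of 30 nt and -30 nt, and the median shift of the centre was 0 nt (-15 to 15). Centres lay within 30 nt of each other in 2463 pairs (75.3%) and over 100 nt apart in 112.

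The difference was larger where the MCF-10A site was wide. In the quartile of pairs with the narrowest MCF-10A sites (57 to 240 nt) the median difference was -30 nt, and 59.1% were narrower and 22.7% wider in MDA-468. In the quartile with the widest (386 to 1755 nt) it was -90 nt, with 90.6% narrower and 3.34% wider. Since the MCF-10A width is part of the difference, this order is a description only.

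**Figure D2:**
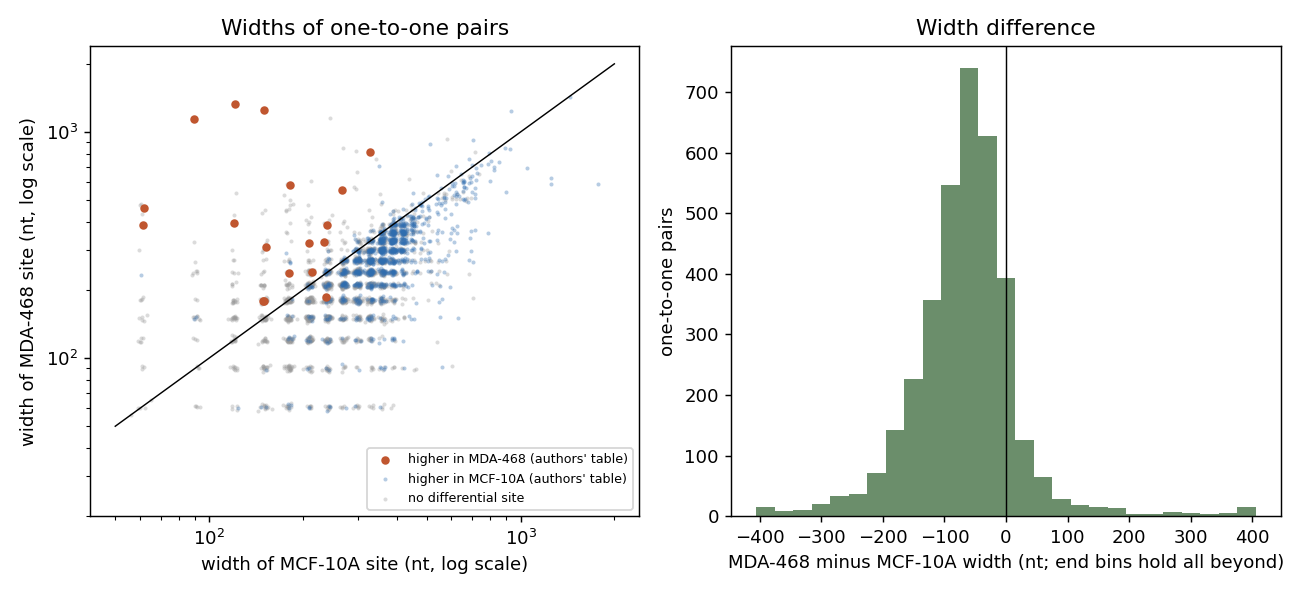
Left, width of the MDA-468 site (y axis, nt, log scale) against that of its MCF-10A partner (x axis, nt, log scale) in 3539 one-to-one pairs, 1 point a pair with slight jitter, coloured by the authors' deposited table, with the line of equal width; right, number of pairs by width difference in bins of 30 nt. Points lie below the line in 2846 pairs, and 17 of the 18 pairs higher in MDA-468 lie above it.

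The pairs with the largest losses and gains of width show both ends of this range. The largest loss in a named nuclear gene was in ALG1, which adds the first mannose in N-glycan assembly, with 599 nt in MDA-468 and 1227 nt in MCF-10A. In BOLA3-DT the widths were 90 nt in MDA-468 and 600 nt in MCF-10A. In CFLAR, which encodes the caspase-8 inhibitor c-FLIP, they were 91 nt (chr2:202035793-202035883) and 570 nt (chr2:202035793-202036362). The largest loss, -1160 nt, was at an unnamed mitochondrial site of 595 nt in MDA-468 and 1755 nt in MCF-10A. Gains were fewer and as large. A pair in XIST, the RNA that silences an X chromosome, measured 1320 nt in MDA-468 and 121 nt in MCF-10A, and 1 in SLC37A2, a sugar phosphate exchanger, 1260 and 150 nt. HOXA7, a homeobox factor, and the antisense HOXA-AS3 gained 534 and 569 nt at nearly the same bases on opposite strands, and with no strand handling stated their reads cannot be told apart.

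A split group is by its definition 1 MCF-10A site against several separate MDA-468 sites, and a joined group the reverse, so gaps and a smaller covered length in the line with the pieces largely follow from the selection and are given as a description only. The 127 split MCF-10A sites covered 88027 nt and their 261 MDA-468 partners 63473 nt, and 121 of them were split over exactly 2 partners. The count fell to 69 with the MDA-468 list cut to the length of the MCF-10A list by p-value, and to 72 with sites of p 1e-10 or less, so it depends on the weaker sites of the longer list, and to 1 with a reciprocal overlap of 50%. The site with the most pieces was in NOL9, a polynucleotide kinase of ribosomal RNA processing. The 4 MDA-468 sites of NOL9 measured 421, 61, 240 and 271 nt in the order of transcription and lay within 1 MCF-10A site of 1380 nt (chr1:6582366-6583745), and the outermost edges coincided. In ORC4, a subunit of the origin recognition complex, MDA-468 sites of 1050, 61 and 61 nt lay within 1739 nt in MCF-10A (chr2:148688356-148690094). In FLVCR1, a transporter of haem and choline, sites of 511, 61 and 91 nt in MDA-468 faced 871 nt in MCF-10A. DFFA, the inhibitor of the apoptotic nuclease CAD, had 358 and 180 nt in MDA-468 against 656 nt in MCF-10A, again with both outer edges in common. NICN1, a subunit of a tubulin polyglutamylase complex, had 3 MDA-468 sites in a many-to-many group with 2 MCF-10A sites, and the 90-nt one lay within the 330-nt one, so its pieces were 2 stretches. In ZBTB8A, a BTB zinc finger gene, the pieces were 301 and 421 nt in MDA-468 and 811 nt in MCF-10A. The pseudogenes FDPSP2 and POM121L10P and the antisense SLC25A25-AS1 and SLFNL1-AS1 complete the 10 sites with the most partners, of which DFFA, ZBTB8A and SLFNL1-AS1 had 2, like many others, and were taken by their smaller MCF-10A p-value. Pseudogene and antisense counts are uncertain because their reads can come from a copy or a partner.

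**Figure D3:**
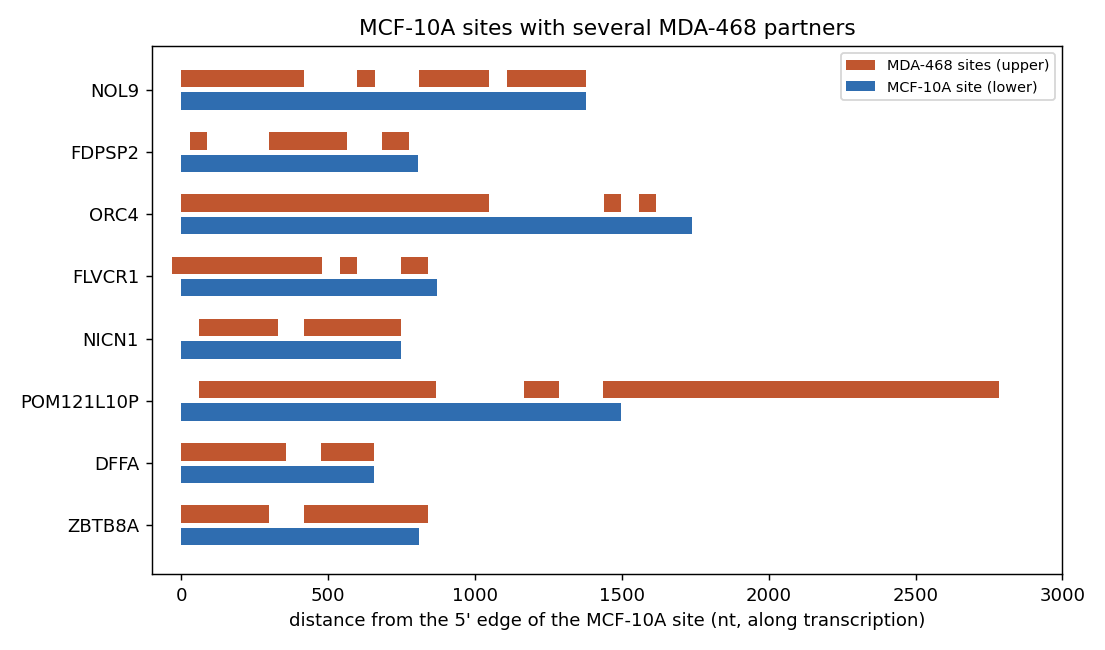
MCF-10A sites with the most MDA-468 partners among those on a single block, drawn by distance from the 5′ edge of the MCF-10A site (x axis, nt, along transcription), with the MDA-468 sites above and the MCF-10A site below for each gene. In NOL9 and DFFA the outer edges of the pieces meet those of the MCF-10A site, and POM121L10P alone reaches far past it.

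The 18 joined groups, selected the other way round, covered 21306 nt in MDA-468 and 14199 nt in MCF-10A, and 16 of them joined 2 sites. By the gene of the site, 6 were in protein-coding genes, 6 in long non-coding RNAs, 3 in TSIX, the antisense partner of XIST, 2 in transcribed pseudogenes and 1 in no named gene. Of the 127 split groups 105 (82.7%) were in protein-coding genes, near the 82.6% of all named genes with a shared site. In METTL21A, a protein lysine methyltransferase, 1 MDA-468 site of 2628 nt faced 2 MCF-10A sites of 1046 and 1224 nt, and in GOSR1, a vesicle fusion protein of the Golgi, 1 of 1441 nt faced 631 and 751 nt. These 2 genes were chosen after their values were seen. The joined groups with 3 MCF-10A sites were in the non-coding RNA ESRG, with 2301 nt in MDA-468 and 180, 299 and 1495 nt in MCF-10A, and in the pseudogene DPY19L2P2, with 1437 nt in MDA-468 and 91 to 389 nt in MCF-10A. Other MDA-468 sites with 3 or more partners lay in many-to-many groups. In SPDYE7P, a pseudogene, 1 MDA-468 site of 4155 nt faced 7 MCF-10A sites of 120 to 838 nt, the last by 1 nt only, and that last site also met a further MDA-468 site. In EEF1DP3 the 3 partners included 1 row with no name at the place of another, so the count there follows overlapping gene models.

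Shared sites stood high in both lists by the authors' p-value, which is the p-value of the peak call. In deciles of the MDA-468 list the shared share was 86.7% in the decile with the smallest p-values, 45.6% in the fifth and 16.1% in the last. In the MCF-10A list it was between 96.0% and 99.2% in each of the first 5 deciles and 17.9% in the last. Median width fell alongside, to 90 nt in the last decile of MDA-468 and 91 nt in that of MCF-10A, against 329 and 390 nt in the first deciles, and a wider site has more bases that can overlap. Over the 3539 pairs the p-values ranked much alike, with a Spearman correlation of 0.778, and widths with one of 0.656. Both are across pairs of the same 2 lists, where genes and libraries are shared, and carry no test. The p-value was smaller in MCF-10A in 3461 pairs and in MDA-468 in 75.

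**Figure D4:**
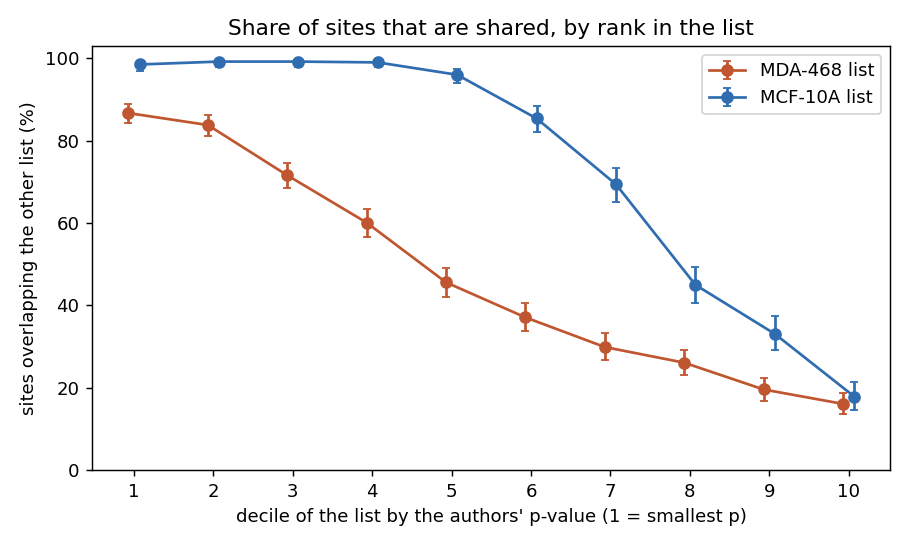
Share of sites that overlap the other list (y axis, %) by decile of the list in order of the authors' p-value (x axis, 1 is the smallest), for the MDA-468 list of 8320 sites and the MCF-10A list of 5194; points are shares and lines are exact 95% intervals. The share was 86.7% and 98.5% in the first decile and 16.1% and 17.9% in the last.

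Of the 288 pairs with identical edges, 0 overlapped a site higher in MDA-468 by the authors' deposited table, 90 (31.2%) one higher in MCF-10A, and 198 none. Over all 3539 one-to-one pairs the authors' deposited table gave 0.509% as higher in MDA-468 and 32.8% as higher in MCF-10A, so the pairs with identical edges lay near the share of all pairs. The 8 with the best summed ranks of p were in MAB21L3, PGM5P2, LOC646214, LRRC58, LINC00294, XPNPEP3, GSTM3 and LEPR, with widths of 300 to 808 nt. In LEPR, the leptin receptor, both sites measured 360 nt, and in GSTM3, a glutathione transferase, 388 nt (chr1:110278224-110278611). In XPNPEP3, a mitochondrial aminopeptidase, both measured 361 nt (chr22:41326850-41327210). The authors' deposited table lists these 8 as higher in MCF-10A, and its log2 values (MDA-468 over MCF-10A) were -1.99 in LEPR, -1.94 in GSTM3, -1.95 in XPNPEP3 and -2.95 in MAB21L3.

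Shared sites were rarely called higher in MDA-468 and often higher in MCF-10A. By overlap with the authors' deposited table, 20 shared MDA-468 sites (0.504%) and 410 unshared ones (9.41%) were higher in MDA-468, against 5.17% of all MDA-468 sites. Sites higher in MCF-10A by the authors' deposited table numbered 1404 of the shared MDA-468 sites (35.4%) and 15 of the unshared (0.344%), against 17.1% of all. On the MCF-10A side the authors' deposited table had 24 shared sites (0.622%) and 1 unshared site as higher in MDA-468, where all sites gave 0.481%. It had 1324 shared (34.3%) and 166 unshared sites (12.4%) as higher in MCF-10A, where all sites gave 28.7%. An unshared site is by its selection called in 1 line only, so these shares are descriptions. Of the split MCF-10A sites 84 of 127 (66.1%) overlapped a site that the authors' deposited table lists as higher in MCF-10A, and 0 overlapped one higher in MDA-468. Input is part of the authors' comparison in a way that is not given in the sources used here, so a difference in transcript level cannot be set apart from one in m5C.

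Width followed the direction of the call. In the 1160 pairs higher in MCF-10A by the authors' deposited table (32.8% of pairs, 31.2 to 34.4), the median widths were 271 nt in MDA-468 and 360 nt in MCF-10A, and 1016 pairs were narrower and 36 wider in MDA-468. In the 18 pairs that it lists as higher in MDA-468 (0.509%, 0.302 to 0.803), the medians were 388.5 and 165.5 nt, and 17 were wider in MDA-468. The 2361 pairs without a differential site had 210 nt in MDA-468 and 271 nt in MCF-10A, with 77.5% narrower, so the narrowing was seen outside the differential sites too. The authors' log2 fold changes in their deposited table ran from -4.21 to -0.672 with a median of -1.90 in the pairs higher in MCF-10A, and from 0.967 to 4.70 with a median of 1.73 in those higher in MDA-468. A pair took its call from a differential site that overlapped it, and 1 such site can overlap several pairs. Neighbouring pairs in RNF207, for example, both carried -1.36 in the authors' deposited table. Pair counts, their intervals and the median log2 values can thus hold 1 differential site more than once.

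By the authors' deposited table the pairs with the lowest log2 fold change were in GOLGA6L1, a golgin family gene (-4.21, widths of 150 nt in MDA-468 and 538 nt in MCF-10A), and in PSPH, the phosphatase of the last step of serine synthesis (-3.89, 210 and 420 nt). PRECSIT (-3.82), PIGR (-3.70), STAC2 (-3.58) and TCAF2 (-3.37) followed in the authors' deposited table. PIGR carries polymeric immunoglobulins across epithelia, and its site measured 209 nt in MDA-468 and 568 nt in MCF-10A (chr1:207102433-207103000). In all 6 pairs the MDA-468 site lay inside its partner. PSPH and GOLGA6L1 have near-identical copies in the genome, so their reads are uncertain.

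By the authors' deposited table the pairs with the highest log2 fold change were in XIST (4.70), OSR1 (3.93), SLC37A2 (2.88), ANKH (2.52), PMS2P9 (2.46) and CHM (2.30). In OSR1, an odd-skipped transcription factor, the widths differed little, with 178 nt in MDA-468 and 149 nt in MCF-10A. In ANKH, a membrane protein of pyrophosphate export, they were 450 nt (chr5:14710899-14711348) and 61 nt (chr5:14711198-14711258). In CHM, the Rab escort protein, they were 390 nt in MDA-468 and 121 nt in MCF-10A. The other named coding genes among the 18 pairs, singled out here because the list is short, were MRGPRX3, EHD2, IL18, TAF15 and MSMO1. EHD2, a membrane-shaping ATPase of caveolae, was the 1 pair of the 18 that was narrower in MDA-468, with 180 nt against 240 nt in MCF-10A.

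Shared sites were seldom spread over a splice junction. They lay on 2 or more exon blocks in 5.62% of shared and 18.3% of unshared MDA-468 sites, and in 7.03% of shared and 11.4% of unshared MCF-10A sites. The plus strand held 50.1% of shared sites in either line. The shared share of MDA-468 sites differed between chromosomes, at 28.9% (25.0 to 33.1) on chromosome 11, 33.5% on chromosome 13 and 37.2% (27.5 to 47.8) on chromosome 21, against 64.3% (58.8 to 69.6) on chromosome 12, 62.3% on chromosome 3 and 61.8% on chromosome 15. On the nuclear autosomes and X the share of MCF-10A sites lay between 68.8% on chromosome 14 and 82.1% on chromosome 9. The number of copies of each chromosome in these lines was not analysed here.

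The shared sites lay in 2898 genes by identifier, of which 2877 could be named. Of these genes 2299 had exactly 1 shared MCF-10A site, 444 had 2, 98 had 3 and 57 had 4 or more. In 2230 of them (76.9%) every site of both lines was shared, 408 had a further MDA-468 site and 328 a further MCF-10A site with no partner. A further 106 genes had sites in both lines of which none overlapped. Protein-coding genes made up 2376, which is 11.8% of the 20052 in the gene table and 46.9% of the 5066 with a site in either line. Transcribed pseudogenes had a shared site as often, in 146 of 1268 (11.5%, 9.81 to 13.4), and long non-coding RNAs in 345 of 18330 (1.88%, 1.69 to 2.09). Of the genes with a site in either line, 59.1% of long non-coding RNAs and 52.7% of transcribed pseudogenes had a shared one, against the 46.9% of coding genes. No RNA levels are in these files, and a gene with no site may be one with little RNA.

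The genes with the most shared sites differed in how far apart on the genome they held them, with any introns counted in the gaps. The median gap between sites was 149 nt in LOC100131257, 194 nt in POLH, 583 nt in ORAI2, 2605 nt in TOR1AIP2 and 3836 nt in ANKRD20A9P. The coding genes among the 10 with the most were CYP20A1, POLH, CFLAR, ORAI2, HOOK3 and TOR1AIP2. In ORAI2, a subunit of store-operated calcium channels, 7 of 8 MDA-468 sites and 7 of 7 MCF-10A sites were shared within chr7:102088824-102095711. All 7 pairs of ORAI2 were narrower in MDA-468, with median widths of 361 and 540 nt in MDA-468 and MCF-10A. Of these pairs 6 overlapped a site that the authors' deposited table lists as higher in MCF-10A, and pairs can overlap the same such site. In CFLAR 7 of 7 MDA-468 and 7 of 8 MCF-10A sites were shared, 4 pairs were narrower and 2 wider in MDA-468, and widths ran from 91 to 1260 nt in MDA-468 and from 150 to 930 nt in MCF-10A. In POLH, the translesion polymerase that copies past ultraviolet damage, 8 of 8 MDA-468 and 7 of 8 MCF-10A sites were shared. CYP20A1, an orphan cytochrome P450, had 11 of 11 and 9 of 9, and TOR1AIP2, a torsin activator of the endoplasmic reticulum, 7 of 7 MDA-468 and 6 of 9 MCF-10A sites. HOOK3, which links cargo to dynein, had 8 of 8 and 7 of 7, with all 6 pairs narrower in MDA-468. The other 4 genes were TSIX and the pseudogenes LOC100131257, ANKRD20A9P and SPDYE7P, whose reads are uncertain.

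Gene classes were read against the 2 backgrounds above, 11.8% of coding genes and 46.9% of coding genes with a site. The C2H2 zinc finger genes, many of them repressors of transposable elements, had a shared site in 141 of 556 (25.4%, 21.8 to 29.2) and in 70.1% (63.3 to 76.4) of the 201 with any site. In ZNF681 both sites measured 360 nt, and in ZNF273 the widths were 300 nt in MDA-468 and 420 nt in MCF-10A. The authors' deposited table gives log2 fold changes of -2.22 for ZNF681 and -2.67 for ZNF273. Word 1 on either strand stood in 28.7% of zinc finger transcripts, against 14.4% of all.

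Genes of p53 signalling and apoptosis had a shared site in 13 of 40 (32.5%, 18.6 to 49.1) and in 81.2% (54.4 to 96.0) of the 16 with any site. Beside CFLAR they included the caspases CASP2 (421 nt in MDA-468 and 571 nt in MCF-10A) and CASP8 (360 and 420 nt), and XIAP, an inhibitor of caspases (301 and 421 nt). MDM4 and MDM2, which restrain p53, had 5 and 2 shared MCF-10A sites. Genes of interferon response and double-stranded RNA sensing also had 13, of 43 (30.2%, 17.2 to 46.1) and again of 16 with any site. Among them were MAVS, the adaptor of cytosolic RNA sensors, with 4 shared sites, the kinase PKR (EIF2AK2, 240 nt in MDA-468 and 330 nt in MCF-10A), the editing enzyme ADAR (181 and 270 nt) and the factor IRF1, whose 989-nt MCF-10A site was split in MDA-468. The authors' deposited table gives log2 fold changes of -2.20 for ADAR, -1.93 for EIF2AK2 and -2.96 for IFIT3. Word 1 stood in 32.5% of the transcripts of the apoptosis class and in 34.9% of those of the interferon class, and its part in these counts was not tested. The share with word 1 did not follow the shared share in every class. In cell cycle and replication genes word 1 stood in 15.9%, and in cholesterol and fatty acid synthesis genes in 15.6%, near the 14.4% of all. In cytosolic ribosomal protein genes it stood in 25.6%, while 8 of 86 (9.3%) had a shared site, or 57.1% of those with any site.

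Cell cycle and replication genes had a shared site in 14 of 63 (22.2%, 12.7 to 34.5), 73.7% of the 19 with any site. In CDK4, the kinase of G1 progression, both sites measured 300 nt with identical edges (chr12:58141510-58141809), and in E2F2 the widths were 270 nt in MDA-468 and 359 nt in MCF-10A. Cholesterol and fatty acid synthesis genes had 7 of 32 (21.9%, 9.28 to 40.0), which is 7 of the 8 with any site. CYP51A1, a sterol demethylase, had 359 nt in MDA-468 and 419 nt in MCF-10A. MSMO1, which acts on the same sterols, was wider in MDA-468, with 327 nt against 238 nt in MCF-10A, and the authors' deposited table gives it a log2 fold change of 1.08. SC5D of the same pathway stood at -1.60 in the authors' deposited table.

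Further classes differed in how near they lay to the background of 46.9% of coding genes with a site. Solute carrier genes had a shared site in 60 of 391 (15.3%, 11.9 to 19.3), 49.6% (40.4 to 58.8) of those with any site. TRIM, RNF and F-box ubiquitin ligases had one in 39 of 220 (17.7%, 12.9 to 23.4) and of 65 with any site (interval 47.1 to 72.0%), and deubiquitinases in 13 of 61 (21.3%, 11.9 to 33.7). The intervals of the ubiquitin ligases and of endosome and vesicle transport, at 66.7% (47.2 to 82.7) of members with any site, began just above 46.9%. The shares of members with any site were 59.1% (36.4 to 79.3) for deubiquitinases and 41.2% (18.4 to 67.1) for EGFR, RAS and PI3K signalling. The last class included STAT3, AXL and ERBB3, a receptor of the EGFR family, at -3.09 in the authors' deposited table. Of the genes of m5C and m6A themselves 4 of 33 had a shared site (12.1%, 3.4 to 28.2), near the 11.8% of all coding genes. That was 36.4% (10.9 to 69.2) of the 11 with any site. The 4 were NSUN4, TRDMT1, the m6A demethylase FTO and the m6A methyltransferase METTL16. Their widths were 210 nt in MDA-468 and 270 nt in MCF-10A in METTL16 and in the better ranked of 2 pairs in NSUN4, 151 and 271 nt in TRDMT1 and 270 and 330 nt in FTO. The authors' deposited table lists no differential site over the shared sites of these genes.

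Chromatin regulators stood at the other end. They had a shared site in 4 of 57 (7.02%, 1.95 to 17.0) and in 13.8% (3.89 to 31.7) of the 29 with any site. A further 5 had sites in both lines that did not overlap, as had 88 of all 5066 coding genes with a site in either line. The 4 were HDAC2, a histone deacetylase, NSD2 and SETD1B, histone methyltransferases, and BRD3, a reader of acetylated histones. In BRD3 the MDA-468 site was the wider one, with 450 nt against 390 nt in MCF-10A, and in HDAC2 the narrower, with 180 nt against 360 nt. Word 1 stood in 5.26% of chromatin regulator transcripts. Kinesins and dyneins had 6 of 70, 27.3% (10.7 to 50.2) of those with any site. Of 13 epithelial marker genes 5 had a site and 0 a shared one (upper bound 24.7%, or 52.2% of the 5 with a site). Of 19 markers of fibroblasts, blood and endothelium 8 had a site and 4 a shared one (LYZ, PECAM1, CD68 and PTPRC). This was 50.0% (15.7 to 84.3) of the 8, near the 46.9% of all coding genes with a site. The intervals of the 2 marker lists overlap. A site list shows which transcripts hold a called site and not how much RNA there is, so it does not test the identity of the cells.

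**Figure D5:**
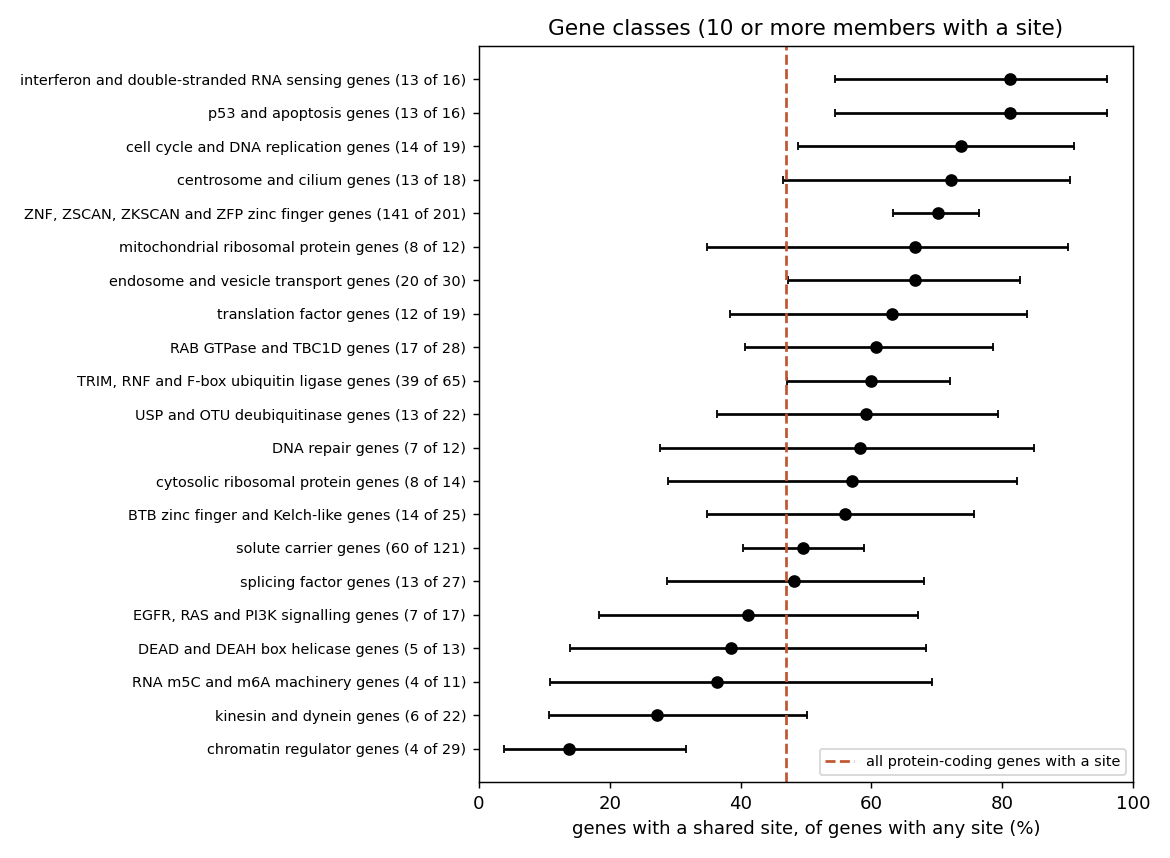
Share of genes with a shared site among genes of each class with a site in either line (x axis, %), with exact 95% intervals and the counts beside each class (y axis); the dashed line is the 46.9% of all such protein-coding genes. Interferon and apoptosis genes stood at 81.2%, zinc finger genes at 70.1% and chromatin regulators at 13.8%.

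Pairs in hosts with and without the word were alike in direction. Only pairs in protein-coding genes with a searched transcript were counted here, so these groups do not cover all one-to-one pairs. The 1966 pairs whose host transcript held word 1 on either strand had median widths of 240 nt in MDA-468 and 330 nt in MCF-10A, and 85.0% were narrower in MDA-468. The 940 pairs without it had 211 nt in MDA-468 and 270 nt in MCF-10A, and 73.4% were narrower. Of the pairs with the word 36.8% were higher in MCF-10A by the authors' deposited table, and of those without it 27.1%. Higher in MDA-468 by the authors' deposited table were 4 pairs with the word and 5 without.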

How the data were processed

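MeRIP-seq sites of MDA-468 and MCF-10A were analysed as 2 lists from 10 samples in 5 groups. Reads were aligned to hg19 with TopHat, per the submitters' processing notes, and compared with exomePeak on UCSC known genes, per the file headers. The rule for a consistent site, the pooling of replicates and the use of the technical replicates are steps not given in the sources used. Each listed site carries a p-value deposited by the authors, at 0 where too small for the number format. The table of differences holds a ratio, the authors' fold of MeRIP over input, a log2 fold change by the authors, and logarithms of p-values that the authors deposited as a score, not printed here. Its title and its name give opposite directions. Of 389 sites that are positive in the authors' deposited table, 381 overlapped the MDA-468 list and 19 the MCF-10A list, so positive was read as higher in MDA-468. The 1406 negative sites were less one-sided, with 1221 overlapping the MDA-468 list and 1334 the MCF-10A list, and the reading of negative as higher in MCF-10A rests mainly on the positive sites.

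Exon blocks were paired by overlap of at least 1 nt on the same strand, checked against bedtools 2.31.1 and tested on simulated lists, and connected sites were sorted into one-to-one, split, joined and many-to-many groups. Width is the summed length of exon blocks. Coordinates are hg19, counted from 1, as the files give them. Genes were named by Entrez identifier through a RefSeq gene table. Words of 14 bases were counted in GENCODE release 29 transcripts, the longest coding one of each protein-coding gene. No test was made, since no file holds values per library. Named genes are those with the most partners or shared sites, the most extreme width or log2 differences, the best identical pairs, and the members of each class with the smallest MCF-10A p-value. Some items that this rule names are not reported here. Members and gene lists were chosen with earlier results of these data known. Calculations used Python 3.11.15, pandas 2.3.3, numpy 2.4.6, scipy 1.17.1 and matplotlib 3.10.9.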

Additional observations from a re-analysis of the deposited data

How the results depend on the processing

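Of 73 recomputed values 66 stayed within 1.5 times the reported count, or within the 95% interval of the reported median or nested share, and 7 moved. The alternatives were an overlap of 50% of the shorter site, a reciprocal overlap of 50%, no strand, whole spans, a p-value of 1e-10 or less, an MDA-468 list cut to the length of the MCF-10A list, merged rows, no mitochondrial sites, and 3 rules for differential sites. The median width difference, the only one of these values that has a direction, was -60 nt under each alternative for pairing. Split sites numbered 127 as reported, 1 with the reciprocal overlap, 72 with p of 1e-10 or less and 69 with the shorter MDA-468 list. Joined sites numbered 18 as reported and 0 with the reciprocal overlap, which by its construction leaves few sites with several partners. With an absolute log2 fold change of 2 or more in the authors' deposited table, 485 pairs had a differential site, against 1178, of which 6 were higher in MDA-468 and 479 higher in MCF-10A, against 18 and 1160. No paired analysis was possible because the files hold merged lists with no value per library, and for the same reason no replicate could be left out.

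Depth is unknown, and it bears on the number, width and p-value of called sites. MCF-10A had 2 more MeRIP libraries. The p-value stands at 0 for 225 MCF-10A and 14 MDA-468 sites, which cannot be ranked among themselves.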

Other observations

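Few shared sites had a site of their own list on the other strand at the same bases, 49 in MDA-468 (1.24%) and 49 in MCF-10A (1.27%), and 21 and 22 of these carried the same p-value on both strands. The share was 1.33% for unshared MDA-468 sites, near that of the shared ones, and 2.32% for unshared MCF-10A sites. On the mitochondrial genome 5 of 5 MDA-468 sites and 5 of 17 MCF-10A sites were shared, all 5 as one-to-one pairs.

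Of the pairs ranked in the best decile of their list, 632 were so in MDA-468, 437 in MCF-10A and 344 in both, and 129 pairs had a p-value of 1e-50 or less in both lines.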
